A study of Mus musculus with 16 samples.

Results

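The transcripts of 10 genes that encode light chains of conventional myosin were followed in C2C12 cells, a mouse myoblast line that fuses into myotubes in culture. The genes were taken by symbol as Mylpf, Myl1, Myl2, Myl3, Myl4, Myl6, Myl6b, Myl9, Myl12a and Myl12b, and all 10 were found among the 31053 rows of the expression table. The study compared unmodified C2C12 cells (WT) with C2C12 cells in which Fam134b, a receptor for selective autophagy of the endoplasmic reticulum, had been disrupted (Fam134b KO), each as undifferentiated myoblasts and as differentiated myotubes. There were 4 samples of WT myoblasts, 4 of WT myotubes, 4 of Fam134b KO myoblasts and 4 of Fam134b KO myotubes. The Fam134b KO cells were made with lentiviral Cas9 and guides followed by drug selection, and no control vector is described for the WT cells, so the loss of Fam134b and the history of the line cannot be told apart. The sample titles give genotype, stage and replicate number. The methods say in general that experiments were done on independent biological replicates, and the labels do not say how the 4 samples of a group were grown, so p-values measure the spread between these samples.

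Myosin is the motor of the actin cytoskeleton and of the muscle sarcomere. Each of its heavy chains carries an essential light chain, which stiffens the lever arm, and a regulatory light chain, whose phosphorylation or isoform tunes the motor. In fast skeletal muscle the regulatory chain is Mylpf and the essential chain is Myl1, which gives rise to a long and a short form. Myl4 is the essential chain of embryonic skeletal muscle and of the atrium. Myl2 and Myl3 are the regulatory and essential chains of slow skeletal muscle and of the ventricle. Non-muscle and smooth muscle myosins use Myl9, Myl12a or Myl12b as regulatory chains and Myl6 as essential chain, while Myl6b is an essential chain found in slow muscle and in non-muscle cells. When myoblasts differentiate, sarcomeric myosins are built beside the non-muscle myosins that the cell already has.

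The promoter sequences of 5 members are shown because 4 of these genes (Mylpf, Myl1, Myl4 and Myl6b) moved together in the results below and Myl9 moved the other way. Each window runs from 250 bases before to 50 bases after the RefSeq transcription start in the GRCm38.p6 assembly and is written 5′ to 3′ on the strand of the gene. Capitals mark matches to the E-box CANNTG, the class of site bound by myogenic basic helix-loop-helix factors, or, in Myl9, also a match to the CArG box, the class of site bound by serum response factor. The Mylpf window lies at chr7:127211358-127211657 on the plus strand, inside the annotated gene and downstream of its outermost start. That of Myl1 is chr1:66945007-66945306 on the minus strand, that of Myl4 chr11:104550413-104550712 on the plus strand, that of Myl6b chr10:128498636-128498935 on the minus strand and that of Myl9 chr2:156775214-156775513 on the plus strand.
Mylpf: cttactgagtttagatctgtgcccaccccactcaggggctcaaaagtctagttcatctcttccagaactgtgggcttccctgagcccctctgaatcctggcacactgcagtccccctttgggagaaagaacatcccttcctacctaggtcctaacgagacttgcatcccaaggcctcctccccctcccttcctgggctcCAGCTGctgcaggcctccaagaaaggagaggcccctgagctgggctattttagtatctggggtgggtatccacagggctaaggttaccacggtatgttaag
Myl1: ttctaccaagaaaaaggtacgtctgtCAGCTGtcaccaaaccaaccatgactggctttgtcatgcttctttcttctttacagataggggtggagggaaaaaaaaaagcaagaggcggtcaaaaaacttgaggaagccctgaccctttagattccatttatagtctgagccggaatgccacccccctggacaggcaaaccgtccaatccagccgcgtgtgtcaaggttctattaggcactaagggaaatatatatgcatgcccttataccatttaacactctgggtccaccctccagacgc
Myl4: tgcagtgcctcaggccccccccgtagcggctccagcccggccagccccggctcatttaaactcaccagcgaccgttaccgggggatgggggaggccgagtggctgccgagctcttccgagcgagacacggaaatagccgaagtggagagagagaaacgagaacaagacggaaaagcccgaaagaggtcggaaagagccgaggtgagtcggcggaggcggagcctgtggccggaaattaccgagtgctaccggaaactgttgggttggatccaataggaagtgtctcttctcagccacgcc
Myl6b: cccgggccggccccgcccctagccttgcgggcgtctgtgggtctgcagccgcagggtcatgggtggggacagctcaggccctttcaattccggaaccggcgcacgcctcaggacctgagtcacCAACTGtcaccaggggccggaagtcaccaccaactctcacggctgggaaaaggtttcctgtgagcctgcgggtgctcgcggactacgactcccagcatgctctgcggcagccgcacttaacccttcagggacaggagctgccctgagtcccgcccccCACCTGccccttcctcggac
Myl9: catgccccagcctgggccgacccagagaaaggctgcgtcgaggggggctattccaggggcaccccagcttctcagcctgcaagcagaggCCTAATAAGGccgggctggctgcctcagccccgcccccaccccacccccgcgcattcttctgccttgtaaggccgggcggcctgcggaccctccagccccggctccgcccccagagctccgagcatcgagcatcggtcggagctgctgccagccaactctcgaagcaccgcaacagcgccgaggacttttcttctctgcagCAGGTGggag

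Motifs were searched on both strands in the 12 windows of the 10 members, since Myl2 and Myl6 have 2 windows each. The E-box CANNTG was in 10 of the 12 member windows, and 72.3% of all 32851 promoter windows of this length held it. Its form CAGCTG, which is counted among the CANNTG matches too, was in 5 of 12, in Mylpf, Myl1, Myl12a and both windows of Myl2, against 16.3% of all windows. In Mylpf it lay at -51 to -46 from the start and in Myl1 at -224 to -219. The Myl4 window, at the outermost annotated start of the gene, held none of the motifs searched. No other start of Myl4 was searched, and the coding gene Cdc27 lies 43 bases from Myl4 on the other strand. The 2 E-boxes of Myl6b were at -127 to -122 and at 30 to 35. A CArG box was found in Myl9, at -161 to -152, in Myl3 and in 1 window of Myl6, against 1.63% of all windows, and the MEF2 site was in 0 of 12 member windows against 3.19% of all. These matches describe letters in a short window and are not evidence of binding.

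Each sample held 1484750 to 3287461 gene reads. In 100% of values above 0, the deposited value turned back from log2 was a whole multiple of 1 step per sample (within 0.05 reads), which gave the reads behind each value. A normalized count is used below, the read count divided by the sample's factor, and 3 reads, the level taken as detected, equal 2.49 to 5.99 normalized counts. This floor covers counting error only. Fam134b itself lay between 146 and 287 normalized counts in the 8 WT samples and between 23.4 and 56.9 in the 8 Fam134b KO samples. Libraries 2 and 4 of Fam134b KO myotubes were the shallowest, with 1790524 and 1484750 reads, and library 2 of Fam134b KO myoblasts stood apart from its group, with 12594 genes with a read against 13222 to 13239 in the others.

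The labelled stages were set against markers. Of 6 myotube markers (Myog, Ckm, Acta1, Myh3, Tnnt3 and Mef2c), 6 were called higher in myotubes in each genotype, and their summed level was 602 to 1023 normalized counts in WT myoblasts and 12035 to 17451 in WT myotubes. In Fam134b KO cells the sum was 7.51 to 16.6 in myoblasts and 6036 to 8279 in myotubes. Of 5 myoblast markers, Pax7 had at most 5 reads in any sample, and Myod1, Des and Cdh15 were called lower in Fam134b KO myoblasts than in WT myoblasts. Myf5 was higher in every Fam134b KO myoblast library than in any WT myoblast library (114 ± 5.09 against 71.1 ± 10.0 normalized counts, SD, n = 4 each) but was not called. These markers did not mark the undifferentiated stage, since Myod1, Des and Cdh15 were called higher in myotubes of both genotypes. The summed level of the list was 1002 to 1485 normalized counts in WT myoblasts and 2697 to 3231 in WT myotubes, and 262 to 366 and 889 to 1192 in those of Fam134b KO cells. Myod1, a master regulator of myogenesis, had 282 ± 63.7 normalized counts in WT myoblasts and 9.62 ± 4.70 in Fam134b KO myoblasts (SD, n = 4 each). Markers of endothelial cells (3 genes) summed to at most 1.94 normalized counts, of leukocytes (3 genes) to at most 11.2 and of adipocytes (4 genes, Adipoq and Plin1 at 0 throughout) to at most 26.2. The 1 adipocyte marker tested, Pparg, was called higher in Fam134b KO than in WT myoblasts (log2 fold change 1.84, limma adjusted p = 0.0366). Pparg had 18.2 ± 5.81 against 4.28 ± 1.16 normalized counts there (SD, n = 4 each) and was not called between myotubes. Cardiac markers (4 genes, Nppa at 0 throughout) summed to 3.86 to 30.7 in WT and 22.5 to 69.1 in Fam134b KO samples, and the 1 tested, Nkx2-5, was called higher in Fam134b KO cells at both stages (log2 fold change 3.91 and 3.11). Smooth muscle markers (6 genes) summed to 5880 to 14265, of which most was Acta2, an actin that myoblasts also make, while Myh11, the smooth muscle heavy chain, had at most 2 reads.

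Of the 10 members, 8 passed the minimum of 10 normalized counts in at least 4 of 16 samples. Myl2, the slow regulatory chain, had 0 reads in all 16 samples. Myl3, the slow essential chain, had 1 read in each of 2 WT myotube samples and 0 in the other 14. Neither was detectable at this depth, and no fold is given for them. A further pair of light chain genes outside the 10, the atrial Myl7 and Myl10, had 0 and at most 2 reads in any sample.

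Positions are from the GENCODE M21 annotation on GRCm38, the assembly also called mm10, which the submitters' processing notes name. Counting was per gene, so values cover all exons and the isoforms of a gene are not separated. Mylpf lies at chr7:127208890-127214298 on the plus strand and Myl9 at chr2:156775420-156781658 on the plus strand. Myl1 is at chr1:66924295-66945404 on the minus strand and Myl4 at chr11:104550663-104595753 on the plus strand. Myl6 (chr10:128490860-128494145) and Myl6b (chr10:128494157-128498685) are neighbours on the minus strand, 12 bases apart. Myl12b (chr17:70973133-70990890) and Myl12a (chr17:70993656-71002878) are also neighbours on the minus strand, and a second gene model that carries the name Myl12b overlaps both. Myl12a also overlaps Myom1, a sarcomere gene on the other strand.

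Shared sequence limits some members more than others. Among all stretches of 31 bases in the last 500 bases of its coding transcripts, Mylpf, Myl4, Myl6b and Myl9 shared 0.0% with any other annotated gene. For Myl1 the share was 27.2% to 55.5% over its 5 coding transcripts, in each case with the pseudogene Mylf-ps. For Myl6 it was 7.0% to 70.2%, mostly with processed pseudogenes. For Myl12a and Myl12b it ran from 0.0% to 84.9% and 80.2% by transcript, mostly with the overlapping second model and with each other. The levels of Myl1, Myl6, Myl12a and Myl12b are therefore uncertain where reads could be split or discarded, and fold changes of these genes between samples rest on the reads that remained.

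The first question was which light chains change as WT myoblasts become myotubes. Mylpf, Myl1, Myl4 and Myl6b rose by 9.05- to 42.8-fold, Myl9 and Myl6 fell by 2.08- and 2.13-fold, and Myl12a and Myl12b did not pass the test. The 4 members called higher stand beside 13.8% of all 10767 genes tested, and the 2 called lower beside 9.16%. The median log2 fold change was 1.40 over the 8 members and -0.01 over all genes. In bulk samples such as these, fewer cells of a type and less RNA per cell cannot be told apart.

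Mylpf had 1172, 1082, 916 and 872 normalized counts in WT myoblasts and 12034, 8196, 14198 and 10250 in WT myotubes. Every myotube sample lay above every myoblast sample. The means were 1010 ± 141 and 11170 ± 2556 (SD, n = 4 each), an 11.1-fold rise (log2 fold change 3.45, standard error 0.20, limma adjusted p = 9.48e-11).

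Among the essential chains, Myl4 made the steepest rise. It had 80.3, 70.4, 70.1 and 85.6 normalized counts in WT myoblasts and 3569, 2238, 4488 and 2808 in WT myotubes. The groups were far apart, with a 42.8-fold difference of the means (log2 fold change 5.36, standard error 0.22, limma adjusted p = 4.80e-13). Myl1, its adult fast counterpart, had 30.4, 44.4, 26.0 and 30.3 normalized counts in myoblasts and 426, 256, 483 and 341 in myotubes. This was an 11.5-fold rise with no overlap (log2 fold change 3.47, standard error 0.28, limma adjusted p = 1.14e-08). Myl6b went from 116, 99.3, 129 and 107 to 1095, 1036, 1139 and 817 normalized counts. Its groups did not overlap either, and the rise was 9.05-fold (log2 fold change 3.16, standard error 0.17, limma adjusted p = 4.51e-11).

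Among the chains of non-muscle myosin, Myl9 had 2464, 2870, 3180 and 2880 normalized counts in WT myoblasts and 651, 2067, 1487 and 1271 in WT myotubes. All myotube samples were lower, but they spread 3.18-fold among themselves, against 1.29-fold in myoblasts. Its log2 fold change was -1.17 (standard error 0.30, limma adjusted p = 0.00838). Of 5 smooth muscle markers tested, 2 were called lower in WT myotubes, Cnn1 (log2 fold change -2.64) and Tagln (-1.76), and 2 higher, Lmod1 (1.39) and Smtn (0.93). In Fam134b KO cells Cnn1 and Tagln were called lower (-2.49 and -1.49) and none higher, and the part of these markers in the Myl9 result was not tested. Myl6 had 327, 468, 427 and 462 normalized counts in myoblasts and 176, 225, 198 and 190 in myotubes, again without overlap, and its log2 fold change was -1.08 (standard error 0.29, limma adjusted p = 0.0105). Myl12a overlapped between the stages, with 2681 to 3492 normalized counts in myoblasts and 1943 to 2857 in myotubes, and was not called (log2 fold change -0.36, 95% interval -0.88 to 0.16, limma adjusted p = 0.320). Myl12b had 109 to 158 normalized counts in myoblasts and 68.2 to 103 in myotubes. Its groups did not overlap, yet it was not called (log2 fold change -0.50, 95% interval -0.96 to -0.04, limma adjusted p = 0.107). In all, 7 of the 8 members had groups without overlap, beside 28.0% of all genes tested.

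**Figure D1:**
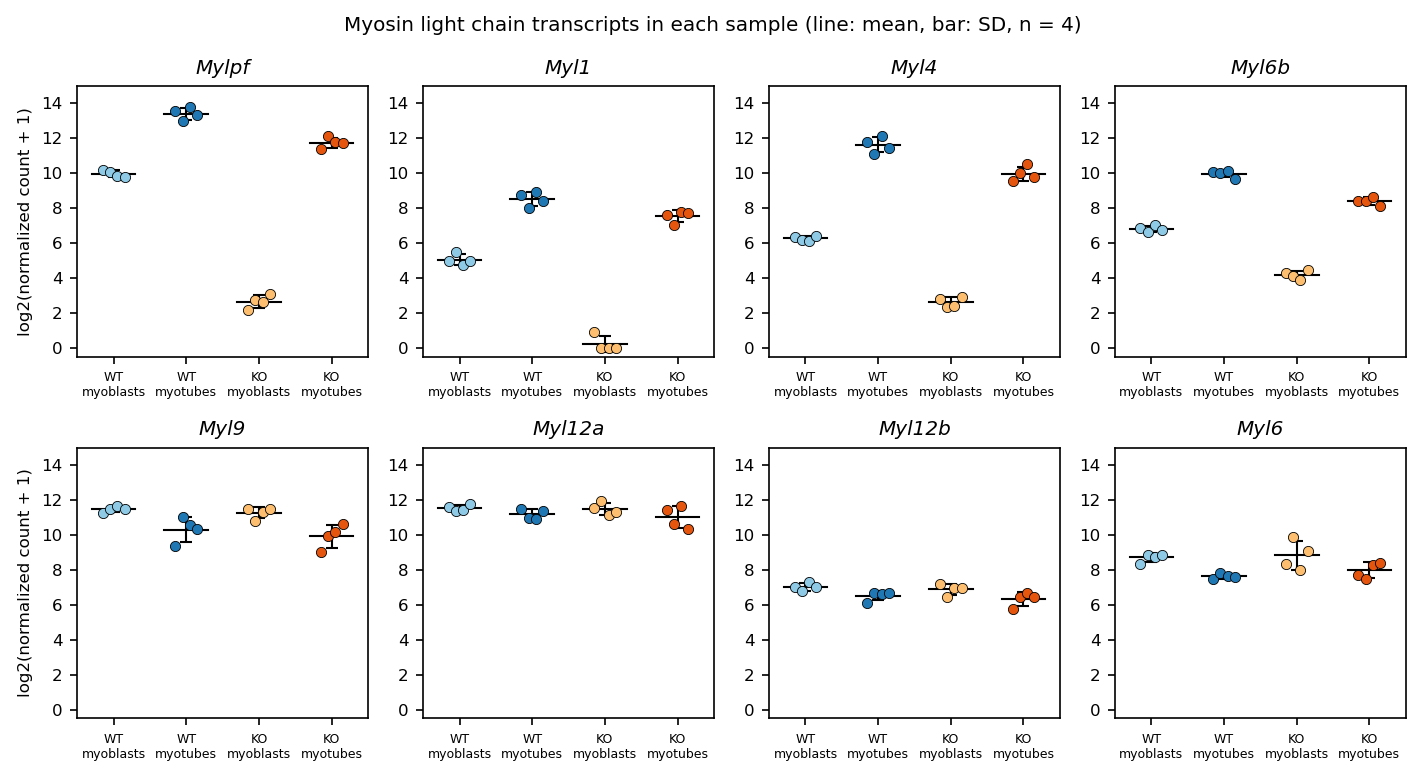
Each panel plots log2(normalized count + 1) of 1 light chain gene in the 16 samples (points), with the mean (line) and SD (bar) of the 4 samples per group. Mylpf, Myl1, Myl4 and Myl6b were high in myotubes and lowest in KO (Fam134b KO) myoblasts, while the group means of Myl9, Myl12a, Myl12b and Myl6 lay closer together.

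In Fam134b KO cells, the same 4 members rose on differentiation from a much lower start. Mylpf had 3.50, 5.81, 5.21 and 7.51 normalized counts in Fam134b KO myoblasts, which is 4 to 9 reads per library, and 2736, 4439, 3498 and 3355 in Fam134b KO myotubes. The means differed 637-fold (log2 fold change 9.09, standard error 0.20, limma adjusted p = 1.35e-18). Myl4 had 6.12, 4.15, 4.34 and 6.67 normalized counts in myoblasts and 749, 1027, 1475 and 883 in myotubes, a 194-fold rise (log2 fold change 7.33, standard error 0.22, limma adjusted p = 2.23e-16). Both genes stayed near the detection floor in every Fam134b KO myoblast library and were abundant in every myotube library. Myl1 had 1, 0, 0 and 0 reads in the Fam134b KO myoblast libraries and 195, 131, 220 and 208 normalized counts in myotubes, and was at least 71.7-fold higher when set against a floor of 3 reads per library. Its fitted log2 fold change of 7.31 (limma adjusted p = 8.72e-15) depends on the pseudocount and was 5.19 with a pseudocount of 5. Myl6b went from 18.4, 16.6, 13.9 and 20.9 to 342, 347, 407 and 282 normalized counts, a 19.8-fold rise (log2 fold change 4.23, standard error 0.17, limma adjusted p = 2.83e-14).

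Of the non-muscle chains, Myl9 and Myl6 were called lower on differentiation of Fam134b KO cells too. Myl9 had 2848, 1782, 2515 and 2872 normalized counts in Fam134b KO myoblasts and 515, 986, 1131 and 1549 in Fam134b KO myotubes. No samples overlapped, and its log2 fold change was -1.34 (standard error 0.30, limma adjusted p = 0.00183). Myl6 had 322, 941, 258 and 535 normalized counts in myoblasts and 211, 174, 309 and 340 in myotubes, so the groups overlapped and the myoblast samples spread 3.65-fold. It was called lower (log2 fold change -0.86, standard error 0.29, limma adjusted p = 0.0271), but without library 2 of Fam134b KO myoblasts, which stood apart, the value was -0.51 with an adjusted p of 0.117, and without the 2 shallowest libraries the adjusted p was 0.0672. The call was also lost without library 4 of Fam134b KO myoblasts (adjusted p = 0.0787) or without library 1 or 2 of Fam134b KO myotubes (0.0711 and 0.0843). Myl12a ranged from 2207 to 3897 normalized counts in myoblasts and from 1315 to 3232 in myotubes and was not called (log2 fold change -0.46, 95% interval -0.98 to 0.05, limma adjusted p = 0.156). Without library 3 of Fam134b KO myotubes its log2 fold change was -0.68 (adjusted p = 0.0376), and without the 2 shallowest libraries it was 0.06. Myl12b ranged from 84.7 to 147 and from 53.2 to 99.9 normalized counts and was not called (log2 fold change -0.54, standard error 0.22, limma adjusted p = 0.0624). It passed the test without library 2 of Fam134b KO myoblasts (-0.70, adjusted p = 0.0227) or without library 3 of Fam134b KO myotubes (-0.65, adjusted p = 0.0386). The 4 members called higher stand beside 17.3% of all genes and the 2 called lower beside 16.1%. Groups did not overlap for 5 of 8 members, beside 27.4% of all genes. The median log2 fold change was 1.88 over the 8 members, also with Myl1 at its bound, and -0.02 over all genes.

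The next question was how the light chains differ between genotypes before differentiation. In Fam134b KO myoblasts, 4 of 8 members were lower than in WT myoblasts and 0 were higher. The members called lower stand beside 8.50% of all genes, and 7.26% of all genes were called higher. Mylpf fell from 872 to 1172 normalized counts to between 3.50 and 7.51, a 183-fold lower mean (log2 fold change -7.31, standard error 0.20, limma adjusted p = 2.51e-16). Myl4 was 14.4-fold lower (log2 fold change -3.63, standard error 0.22, limma adjusted p = 6.37e-11), and Myl6b, with 17.4 ± 2.94 against 113 ± 12.8 normalized counts (SD, n = 4 each), was 6.48-fold lower (log2 fold change -2.64, standard error 0.17, limma adjusted p = 1.75e-10). Myl1 was at least 12.5-fold lower, with a fitted log2 fold change of -4.82 (limma adjusted p = 2.31e-11) that was -2.84 with a pseudocount of 5. These 4 members had no overlap between the genotypes, beside 26.8% of all genes. Without the library of Fam134b KO myoblasts that stood apart, as with every other sample left out in turn, the same 4 were called.

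The chains of non-muscle myosin were not called between WT and Fam134b KO myoblasts. Myl9 had a log2 fold change of -0.21 (95% interval -0.83 to 0.42), Myl12a of -0.08 (-0.60 to 0.44), Myl12b of -0.15 (-0.61 to 0.31) and Myl6 of 0.12 (-0.49 to 0.72). The limma adjusted p of these 4 was 0.720 to 0.889, and their samples overlapped between genotypes. These intervals reach -0.83 and 0.72, so alike levels were not shown. The lower muscle chains moved with lower myotube markers, since 6 of 6 were called lower in Fam134b KO myoblasts and Myog had 0 reads in all 4 libraries against 92.1 to 149 normalized counts in WT myoblasts. The part of these markers in the difference was not tested. The median log2 fold change was -1.42 over the 8 members, also with Myl1 at its bound, and -0.01 over all genes.

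In myotubes, the same 4 members were again called lower in Fam134b KO cells, by smaller factors. Mylpf was at 2736 to 4439 normalized counts against 8196 to 14198 in WT myotubes, a 3.18-fold lower mean (log2 fold change -1.66, standard error 0.20, limma adjusted p = 6.33e-06). Myl4, at 749 to 1475 against 2238 to 4488, was 3.17-fold lower (log2 fold change -1.66, standard error 0.22, limma adjusted p = 1.84e-05). For Myl6b, at 282 to 407 against 817 to 1139, the difference was 2.97-fold (log2 fold change -1.57, standard error 0.17, limma adjusted p = 1.77e-06). None of these ranges overlapped. Myl1 was at 131 to 220 normalized counts against 256 to 483, again without overlap (log2 fold change -0.98, standard error 0.28, limma adjusted p = 0.0143). Its call did not hold without library 3 of WT myotubes (-0.85, adjusted p = 0.0643) or without the 2 shallowest libraries (-0.82, adjusted p = 0.0795).

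Myl9 (log2 fold change -0.38, 95% interval -1.01 to 0.25), Myl12a (-0.18, -0.70 to 0.33), Myl12b (-0.20, -0.66 to 0.26) and Myl6 (0.34, -0.26 to 0.94) were not called between the myotubes of the genotypes, with a limma adjusted p of 0.400 to 0.639. The 4 members called lower stand beside 13.7% of all genes, with 9.74% called higher, and the 4 without overlap stand beside 19.4%. The median log2 fold change was -0.68 over the 8 members and -0.07 over all genes. Of the 6 myotube markers, 4 were called lower in Fam134b KO myotubes, and the 2 others were Myog (766 ± 195 against 1069 ± 193 normalized counts) and Acta1 (3460 ± 891 against 5961 ± 1467, SD, n = 4 each). Their part in the light chain difference was not tested.

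**Figure D2:**
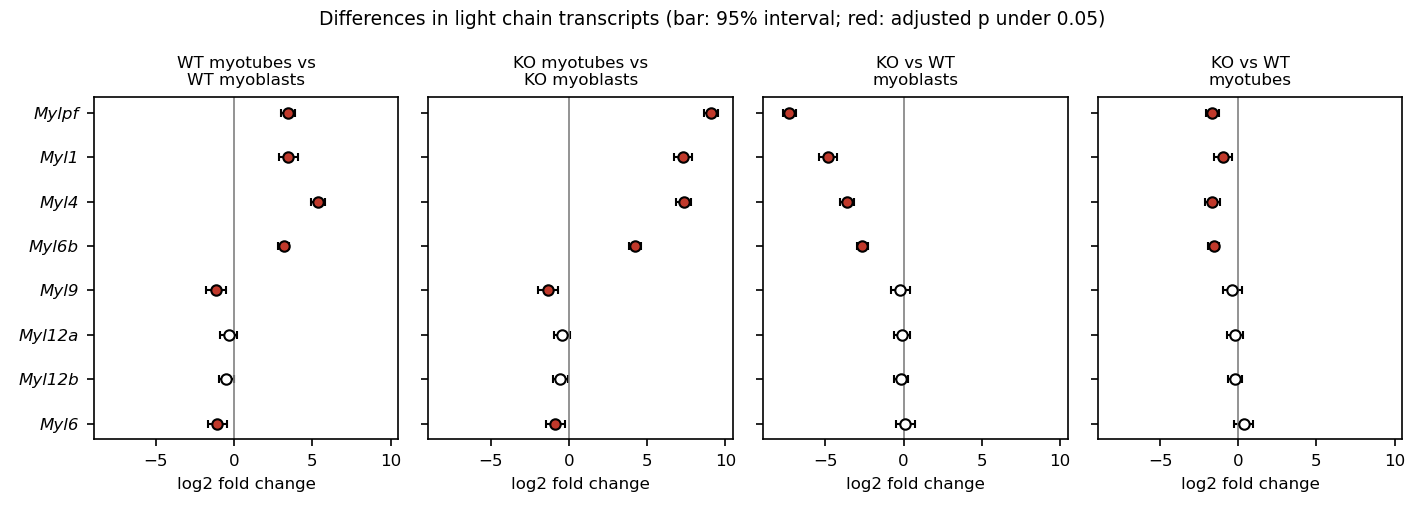
Points give the log2 fold change of each tested light chain gene in 4 comparisons, with 95% intervals from limma (bars), and are filled red where the adjusted p was under 0.05. The 4 genes at the top were called in every comparison, from 9.09 for Mylpf in KO cells to -7.31 for Mylpf between myoblasts, while the others stayed between -1.34 and 0.34.

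The interaction term of the model asked whether the change on differentiation differed between the genotypes. Mylpf rose by 5.64 more on the log2 scale in Fam134b KO than in WT cells (standard error 0.29, limma adjusted p = 1.91e-11). The excess was 1.97 for Myl4 (standard error 0.31, limma adjusted p = 0.000573) and 1.07 for Myl6b (standard error 0.24, limma adjusted p = 0.0153). For Myl1 the fitted excess was 3.84 (limma adjusted p = 1.79e-06), and with a pseudocount of 5 it was 1.87. The 4 members with a more positive change stand beside 1.97% of all genes, and 0 members had a more negative one, beside 1.48%. These terms share the Fam134b KO myoblast samples with the comparisons above and are not independent of them. They stand beside levels in Fam134b KO myotubes that stayed below those of WT myotubes. Myl9, Myl12a, Myl12b and Myl6 had interaction values of -0.17 (95% interval -1.06 to 0.72), -0.11 (-0.84 to 0.62), -0.04 (-0.69 to 0.61) and 0.22 (-0.63 to 1.08), and none was called.

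To compare levels between genes, reads were divided by the length of the longest annotated transcript, and the share of each chain was taken within the regulatory and the essential chains. These shares carry no test. They also carry the uncertain levels of Myl1, Myl6, Myl12a and Myl12b, whose ends are partly shared with other genes. The assay is a commercial digital mRNA service, and whether its reads scale with transcript length is not given in the sources used here, so shares of undivided reads are given beside those per kb for all muscle chains and for the regulatory chains. The muscle chains (Mylpf, Myl1, Myl2, Myl3 and Myl4) made up 23.9% ± 3.62 (SD, n = 4) of all light chain reads per kb in WT myoblasts and 81.9% ± 4.85 in WT myotubes. In Fam134b KO cells they were 0.228% ± 0.0491 in myoblasts and 67.1% ± 5.65 in myotubes (SD, n = 4 each). With undivided reads the 4 values were 14.7%, 73.9%, 0.183% and 54.6%. The order of the groups was the same on both scales. Per kb, the WT and Fam134b KO myotube ranges met, at 75.2% to 85.9% and 62.4% to 75.2%. With undivided reads they did not meet, at 66.2% to 79.8% and 49.1% to 64.0%.

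Among regulatory chains, Mylpf went from 24.2% ± 3.69 to 84.9% ± 4.72 on differentiation of WT cells and from 0.192% ± 0.0594 to 68.3% ± 6.24 in Fam134b KO cells (SD, n = 4 each). With undivided reads the Mylpf share was 14.5% and 73.8% in WT cells and 0.101% and 51.4% in Fam134b KO cells, so it rose on differentiation on both scales. Myl9 and Myl12a shared nearly all of the rest, and their order depended on the scale. Per kb, Myl9 held 46.2% ± 4.47 and Myl12a 28.5% ± 3.39 in WT myoblasts, and 58.6% ± 10.3 and 39.8% ± 10.6 in Fam134b KO myoblasts. With undivided reads they held 40.7% ± 4.28 and 42.9% ± 4.13 in WT myoblasts, and 45.6% ± 10.1 and 52.2% ± 10.5 in Fam134b KO myoblasts (SD, n = 4 each). Which of the pair was the more abundant was therefore not set. Myl12b was at most 1.66% per kb and at most 2.52% of undivided reads in any sample, a level that is uncertain because up to 80.2% of its coding end is shared.

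The split of the essential chains depended on the length used. It is also uncertain because reads from shared ends could be lost unequally. Other genes share 7.0% to 70.2% of the Myl6 coding ends and 27.2% to 55.5% of those of Myl1, against 0.0% for Myl4 and Myl6b. In WT myotubes Myl4 held 44.2% ± 4.86 of essential chain reads per kb of longest transcript, Myl6b 37.3% ± 5.69, Myl1 15.5% ± 1.69 and Myl6 3.02% ± 0.819 (SD, n = 4 each). The longest transcripts of Myl4, Myl6 and Myl6b (3273, 3040 and 1243 bases) are not annotated as protein-coding. Their longest coding transcripts have 943, 1668 and 1026 bases. Per kb of longest coding transcript Myl4 held 69.7% ± 4.57, Myl6b 20.8% ± 4.24, Myl1 7.03% ± 0.534 and Myl6 2.53% ± 0.804. Myl4 and Myl6b overlapped between samples on the first scale (37.4% to 49.0% and 32.7% to 45.6%), so their order there was not set. In Fam134b KO myotubes Myl4 held 36.6% ± 5.44 per kb of longest transcript and 61.5% ± 5.56 per kb of coding transcript, and Myl6 9.99% ± 2.80 and 8.92% ± 2.71. In Fam134b KO myoblasts Myl6 was the main essential chain on both scales, with 89.7% ± 4.29 and 91.6% ± 3.58, against 48.7% ± 4.53 and 53.0% ± 4.66 in WT myoblasts. All light chain reads together were 0.281% ± 0.00758 of all reads in WT myoblasts, 0.735% ± 0.142 in WT myotubes, 0.231% ± 0.0212 in Fam134b KO myoblasts and 0.319% ± 0.0557 in Fam134b KO myotubes (SD, n = 4 each).

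**Figure D3:**
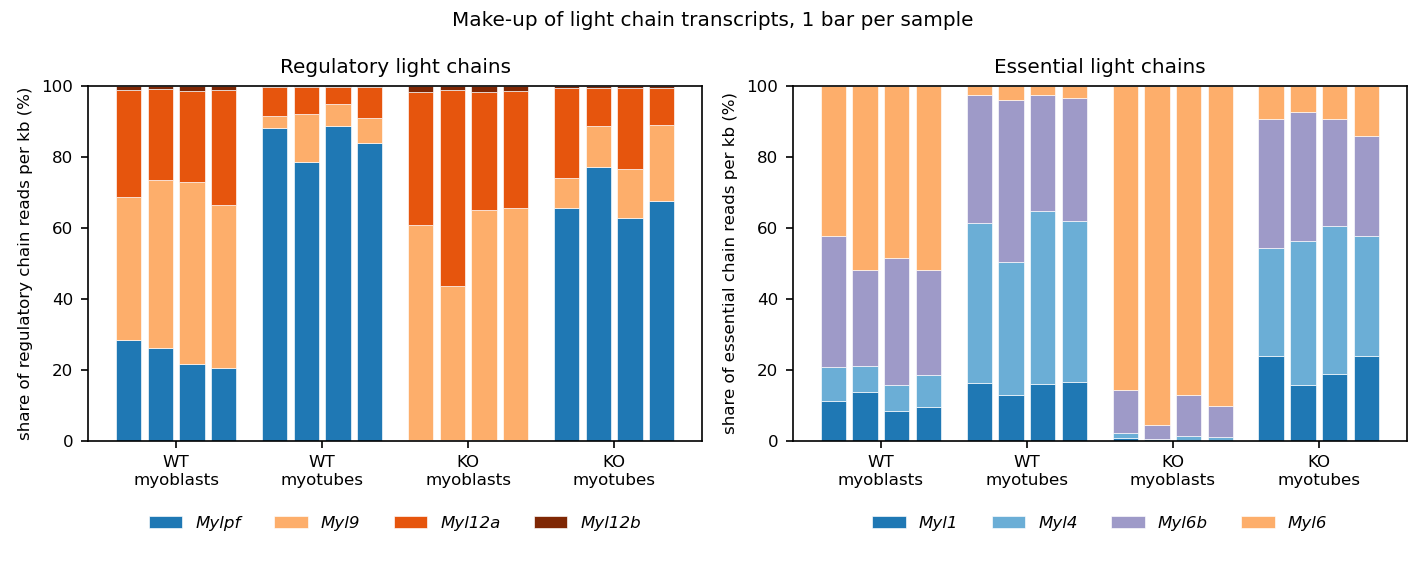
Stacked bars give the share (%) of each regulatory (left) and essential (right) light chain in the summed reads per kb of longest transcript, with 1 bar per sample and 4 samples per group (KO, Fam134b KO). Mylpf held 78.6% to 88.7% of the regulatory chains in WT myotubes and at most 0.251% in KO myoblasts, where Myl6 held 85.8% to 95.5% of the essential chains.

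The heavy chains that these light chains bind were taken from a list of 9 skeletal and cardiac genes, of which 6 were tested. All 6 were called higher in WT myotubes than in WT myoblasts, with a median log2 fold change of 5.44. In Fam134b KO myotubes 5 were called higher, with a median of 5.92, or 4.61 with genes at the floor set to their bounds. Over all genes tested, 13.8% were called higher in WT cells and 17.3% in Fam134b KO cells, with medians of -0.01 and -0.02. The largest in WT were Myh3, the embryonic heavy chain (log2 fold change 6.38), Myh7, the slow chain (6.18), Myh8, the perinatal chain (5.88), and Myh1 (5.00). In Fam134b KO myotubes Myh3 was at least 756-fold, Myh7 at least 36.6-fold, Myh1 at least 28.9-fold and Myh4 at least 20.6-fold higher, since these 4 genes had at most 2 reads in each Fam134b KO myoblast library. In Fam134b KO against WT myoblasts 3 of 6 were called lower, beside 8.50% of all genes. These were Myh3 (at least 21.0-fold), Myh7 (at least 2.97-fold) and Myh4 (at least 2.15-fold). In myotubes 4 of 6 were called lower, beside 13.7% of all genes. These were Myh7b (log2 fold change -3.29), Myh7 (-2.61), Myh4 (-1.38) and Myh3 (-1.10). The Myh7b groups overlapped, with 0 to 14.5 normalized counts in Fam134b KO myotubes (median 0.450) and 12.6 to 38.9 in WT myotubes. The interaction was called for Myh3 alone (3.99). Myh7, the slow heavy chain, had 600 ± 238 normalized counts in WT myotubes (SD, n = 4), although its usual light chains Myl2 and Myl3 were not detectable there.

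The non-muscle heavy chains Myh9 and Myh10, the partners of Myl9, Myl12a, Myl12b and Myl6, were the 2 tested of 4 listed, and neither was called in any comparison. Myh9 had 4520 ± 651 normalized counts in WT myoblasts, 4351 ± 512 in WT myotubes, 5197 ± 911 in Fam134b KO myoblasts and 3889 ± 560 in Fam134b KO myotubes (SD, n = 4 each).

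Kinases that act on regulatory light chains, directly or through the phosphatase, were listed as 14 genes, of which 12 were tested. On differentiation 2 were called higher and 2 lower in WT cells, and 4 higher and 1 lower in Fam134b KO cells. Over all genes tested, 13.8% were called higher and 9.16% lower in WT cells, and 17.3% and 16.1% in Fam134b KO cells, so the WT counts were near those shares. Mylk, the smooth muscle and non-muscle light chain kinase, rose in both (log2 fold change 0.87 and 1.45), as did Mylk4 (2.06 in WT and at least 6.84-fold in Fam134b KO cells), while Cit, citron kinase of the cleavage furrow, fell in both (-0.84 and -1.69). Dapk2 and Cdc42bpb rose in Fam134b KO cells (2.95 and 1.45), and the Dapk2 interaction was called (2.98). Between genotypes all called kinases were lower in Fam134b KO cells, 4 in myoblasts and 5 in myotubes, beside 8.50% and 13.7% of all genes. In myoblasts these were Dapk2 (log2 fold change -4.44), Mylk4 (at least 7.84-fold lower), Mylk2, the skeletal muscle light chain kinase (-3.60), and Cdc42bpg (-3.24). In myotubes Cdc42bpg (-2.96), Mylk4 (-2.30), Mylk2 (-2.08) and Dapk2 (-1.46) were the largest. The median log2 fold change over the 12 tested kinases was -0.53 in myoblasts and -0.32 in myotubes, against -0.01 and -0.07 over all genes.

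Of 7 genes for the myosin phosphatase and its inhibitors, 5 were tested. Ppp1r14b, a phosphatase inhibitor, was called lower in myotubes of both genotypes (log2 fold change -0.82 in WT and -1.21 in Fam134b KO cells) and lower in Fam134b KO than in WT cells (-0.92 in myoblasts and -1.30 in myotubes). Ppp1r12b, a targeting subunit, rose in WT cells (1.15). The other 3 were not called in any comparison. Among 6 further genes that act upstream of these enzymes, all tested, Rhob, a small GTPase, rose on differentiation in both genotypes (1.67 in WT cells, limma adjusted p = 2.49e-10 in Fam134b KO cells), more in Fam134b KO cells (interaction 1.33, limma adjusted p = 0.0101), and was higher in Fam134b KO myotubes (1.05). Calm2, a calmodulin gene, was higher in Fam134b KO myoblasts (0.61) and fell on differentiation there (-0.60), and Calm3 rose there (0.44).

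Genes whose log2 values tracked a member over the 16 samples were ranked by Pearson's r, as a description in which all genes share libraries and the 4 groups set most of the correlation. Mylpf was tracked most closely by Tnnc2, fast troponin C (r = 0.996), by Tmem8c, the fusion protein Myomaker (0.996), and by Tnnc1, slow troponin C (0.992). Tnnc2 had group means of 245 and 4616 normalized counts in myoblasts and myotubes of WT cells and of 0.850 and 1368 in those of Fam134b KO cells. Myl4 was tracked by Casq2, a calsequestrin (0.992), Cacnb1, a calcium channel subunit (0.991), and Smpx, a small muscle protein (0.991). Myl9 was tracked by Tcp1, a chaperonin subunit (0.976), Actb, beta-actin (0.971), and Gata3 (0.968). Between members, r was 0.952 to 0.99 among Mylpf, Myl1, Myl4 and Myl6b, and 0.907 between Myl9 and Myl12b. Within groups, Myl9 and Myl12b were both lowest in library 1 of WT myotubes, library 1 of Fam134b KO myotubes and library 2 of Fam134b KO myoblasts. Myl12a correlated with Myl12b at 0.18.

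**Figure D4:**
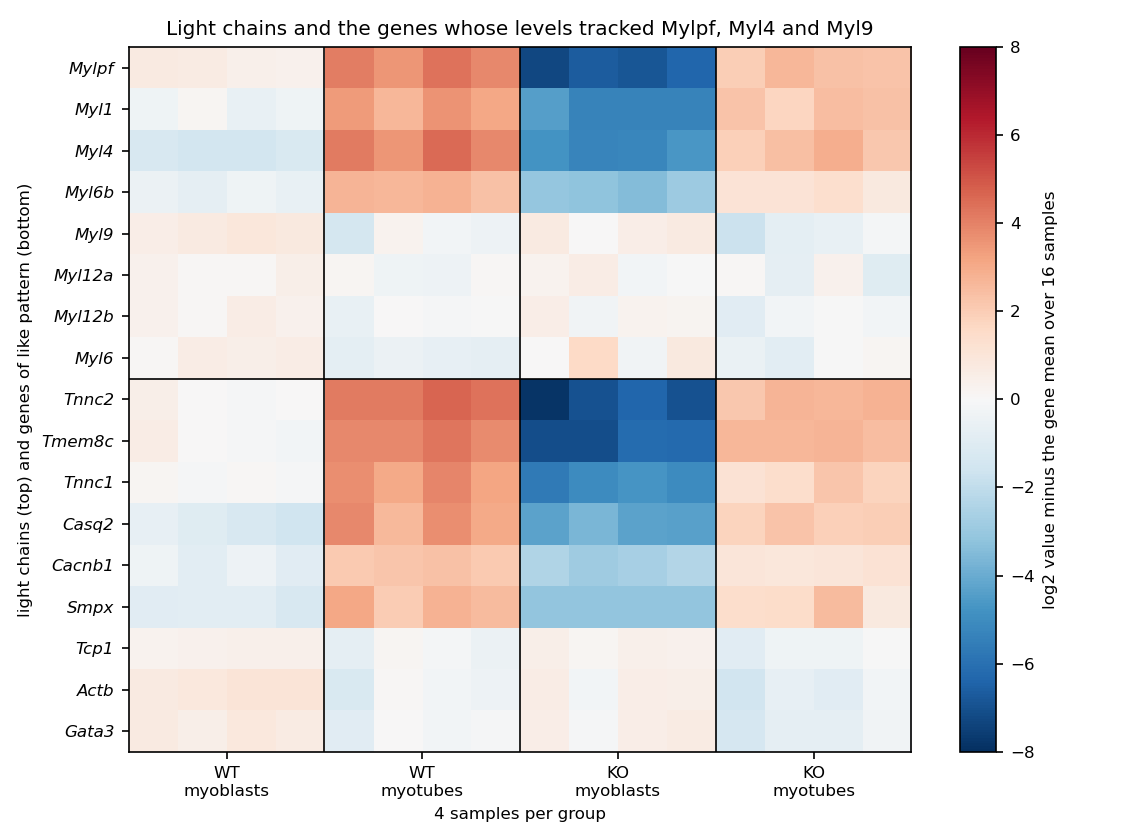
Rows are the 8 tested light chain genes (top) and the 9 genes that tracked Mylpf, Myl4 or Myl9 most closely (bottom), columns are the 16 samples, and colour gives the log2 value minus the gene's mean over the samples. Mylpf, Myl1, Myl4 and Myl6b share the blue of KO (Fam134b KO) myoblasts and the red of WT myotubes with the 6 genes from Tnnc2 to Smpx, and Myl9 shares its pale pattern with Tcp1, Actb and Gata3.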

How the data were processed

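Total RNA of C2C12 myoblasts and myotubes was sequenced as single-end reads by a digital mRNA service. According to the methods and the submitters' processing notes, the authors trimmed reads with bbduk, aligned them with STAR 2.6.0a to mm10 and counted them on genes with HTSeq. The deposited values are log2 values, log2(normalized count + 1), and the tool that gave the scaling factors is not given in the sources used here. Whole reads were recovered from them for depth, floors and shares only. Because the deposited unit is log2, no count test was run. Total reads per sample were 1484750 to 3287461. Of 31053 rows, 74 had no symbol and were kept under their gene identifier.

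The 10767 genes with at least 10 normalized counts in at least 4 of 16 samples were fitted with limma 3.58.1 in R 4.3.3 (lmFit, contrasts.fit, eBayes with trend) as 1 model of the 4 groups. Calls were made where p, adjusted over all of them after Benjamini and Hochberg, fell under 0.05. The fit was first tested on simulated data. Folds against groups with at most 3 reads per library were taken against the largest such floor in the group. The 10 members are all named. From lists of partner genes, at most the 4 called genes with the largest log2 fold change per comparison are named, and for Mylpf, Myl4 and Myl9 the 3 closest genes by Pearson's r. Members, lists and tests were chosen with earlier results of these data known. The alternatives tried were a pseudocount of 0.5 or 5, a minimum of 50 or none, scaling by totals or quantiles, sample weights, a replicate block, only the groups compared, each sample left out in turn and, for shares, undivided reads. Leaving out the 2 shallowest libraries and dividing by the longest coding transcript were added after the data were seen. Python 3.11.15 was used for the remaining steps, with RefSeq promoter windows (GRCm38.p6, all 10 members matched) and GENCODE M21. Protein sequences were not used here, and some listed genes are not reported here.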

Additional observations from a re-analysis of the deposited data

Results flagged for a closer look

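Differentiation changed 4 light chains by different amounts in the genotypes, as tested by the interaction in limma on the log2 scale. The extra rise in Fam134b KO cells was 5.64 for Mylpf, 3.84 for Myl1, 1.97 for Myl4 and 1.07 for Myl6b. The log2 fold changes in WT cells were 3.45, 3.47, 5.36 and 3.16. Over the alternatives tried, the lowest extra rise was 4.94 for Mylpf, 1.87 for Myl1, 1.33 for Myl4 and 0.84 for Myl6b. The limma adjusted p of the Myl6b interaction reached 0.0475, close to the threshold. In 1 of the 31 sets of 4 samples examined over the 8 tested members, a sample lay far from the other 3. This was Myl12b in WT myotubes, where library 1 had 68.2 normalized counts and the others 97.6 to 103. Chance gives such a distance in about 1 of 20 sets.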

How the results depend on the processing

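Of the 24 called log2 fold changes of members (5 comparisons), none changed sign, and the exceptions to holding their call were Myl6 on differentiation of Fam134b KO cells and Myl1 between myotubes, together in 9 of 620 refits. Beside the libraries named above, the Myl6 call was lost with sample weights (-0.49, adjusted p = 0.169) and with only the groups compared (adjusted p = 0.089). Of 412 refits of the 16 values not called, 7 passed the test, all for Myl12a or Myl12b on differentiation, and 20 changed sign. Without the 2 shallowest libraries Myl12a was 0.06 on differentiation of Fam134b KO cells, 0.34 between myotubes and 0.41 in the interaction. With sample weights Myl12a was 0.02 between myotubes and 0.16 in the interaction, and Myl6 was -0.16 between myoblasts. With each sample left out in turn, Myl12a ran from -0.23 to 0.04 between myoblasts, from -0.40 to 0.03 between myotubes and from -0.32 to 0.11 in the interaction, and Myl6 from -0.23 to 0.39 between myoblasts and from -0.05 to 0.57 in the interaction. The interaction ran from -0.49 to 0.13 for Myl9 and from -0.19 to 0.15 for Myl12b. The cause of these shifts was not tested. Over all settings 6 to 7 of the 8 tested members were called in WT differentiation, 5 to 8 in Fam134b KO differentiation, 4 between myoblasts, 3 to 4 between myotubes and 4 in the interaction. Genes called moved more. In WT differentiation 2474 genes became 4683 with sample weights and 1564 to 2949 with a sample left out, lowest without library 1 of WT myotubes. Between myoblasts 1697 became 3773 with weights and 2656 with only those groups, and between myotubes 2521 became 1565 with only those groups. In the interaction 371 became 1221 with weights and 231 to 521 with a sample left out, with 231 and 242 without library 1 or 4 of Fam134b KO myoblasts, 242 without library 2 of WT myoblasts and 245 without library 3 of WT myotubes. The muscle chain share of undivided reads was 14.7%, 73.9% and 54.6% in WT myoblasts, WT myotubes and Fam134b KO myotubes, and by coding length it was 0.317% in Fam134b KO myoblasts. With a replicate block the genes called numbered 2495, 3628, 1678, 2513 and 358 in the 5 comparisons and no member call changed. Samples with the same replicate number did not deviate together (mean r 0.033 over 24 pairs, -0.223 to 0.369, and 4 of 16 samples correlated best with their own number), so the numbers were not read as pairs. Myl2 and Myl3 could not be fitted at this depth, and differences in genes with few reads, such as Myl1 in Fam134b KO myoblasts, are limited by it.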
